A study of Mus musculus with 12 samples.

Results

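Cytochrome P450 genes of families 1 to 3 were compared between livers of A1cf -/- mice (KO) and of wild-type controls (WT). Members were the genes whose names carry family 1, 2 or 3, a subfamily letter and a number, with the Cyp2b genes left out and a mean of at least 5 counts over all libraries. Of 46882 gene names in the deposited table, 55 matched the name pattern and 42 reached that mean, and 41 of the 42 were abundant enough to be tested among 13706 genes. The members spanned 14 subfamilies on 8 chromosomes, and the largest subfamilies were Cyp2c with 13 members and Cyp2d with 7.

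The study measured liver RNA of 6 WT and 6 A1cf -/- mice of the C57BL/6 strain, aged 6 to 8 weeks, by RNA sequencing, with each library described as a biological replicate. The only difference between the groups named in the labels is the A1cf genotype, and no treatment, sex or deletion strategy is given there. A1CF binds RNA, and in liver and gut it is known for helping the deaminase APOBEC1 to edit the Apob transcript. Libraries are named by genotype and by the number in their titles, which fall into a range from 573 to 602 (3 WT and 5 KO) and a range from 776 to 780 (3 WT and 1 KO). Levels are given as CPM, the count divided by the library's scaled total in units of 1e+06.

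Cytochromes P450 of families 1 to 3 are haem enzymes of the endoplasmic reticulum that oxidise drugs, toxins, steroids and fatty acids with electrons delivered by P450 reductase. Most are made in hepatocytes, many of them mainly around the central vein, and their transcription is set by hepatocyte factors such as HNF4A and by receptors that sense foreign compounds, among them AHR, CAR and PXR. In rodents several members are made at different levels in males and females under the control of growth hormone, and many are lowered during inflammation. The subfamilies arose by repeated gene duplication, so neighbouring members can be nearly identical.

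Total counts lay between 22129092 (KO 584) and 51082317 (KO 588), so 3 counts in a library correspond to 0.059 to 0.131 CPM. A1cf checked the labels, with 47.9 to 53.8 CPM in WT and 8.2 to 12.6 CPM in KO libraries, a log2 fold change of −2.26 (SE 0.09, adjusted p = 1.1e-08 by edgeR's quasi-likelihood test). Hepatocyte markers such as Alb were abundant in all 12 libraries. None of the 7 hepatocyte markers passed the test, and 3 of 4 markers of pancreatic acinar cells had 0 counts throughout. The remaining acinar marker, Cela1, had 6.11 to 11.7 CPM in WT and 5.13 to 10.4 in KO. Of 4 gut epithelium markers, Fabp2 and Lgals4 had at least 39.7 CPM in every library, and Vil1 and Cdx2 at most 0.769.

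Few members passed the test of KO against WT. Cyp2d12 rose and Cyp2j9 fell in KO, and the other 39 tested members did not pass the test. That is 4.88% of tested members, beside 3.82% of all 13706 tested genes, so the share called lies near the background. Of the 41 members, 18 had a log2 fold change above 0 and 23 below, with a median of −0.05, beside 0.01 over all tested genes. Without adjustment, 10 members had p below 0.05 by edgeR. The share of all tested genes below that value was not counted, so this count cannot be set against a background. In none of the 41 did the 6 KO libraries lie wholly above or below the 6 WT libraries. Of the 13706 tested genes, 452 separated the genotypes in that way, fewer than the 523 that were called. At so small a share, none among 41 does not set the members apart from the background.

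**Figure D1:**
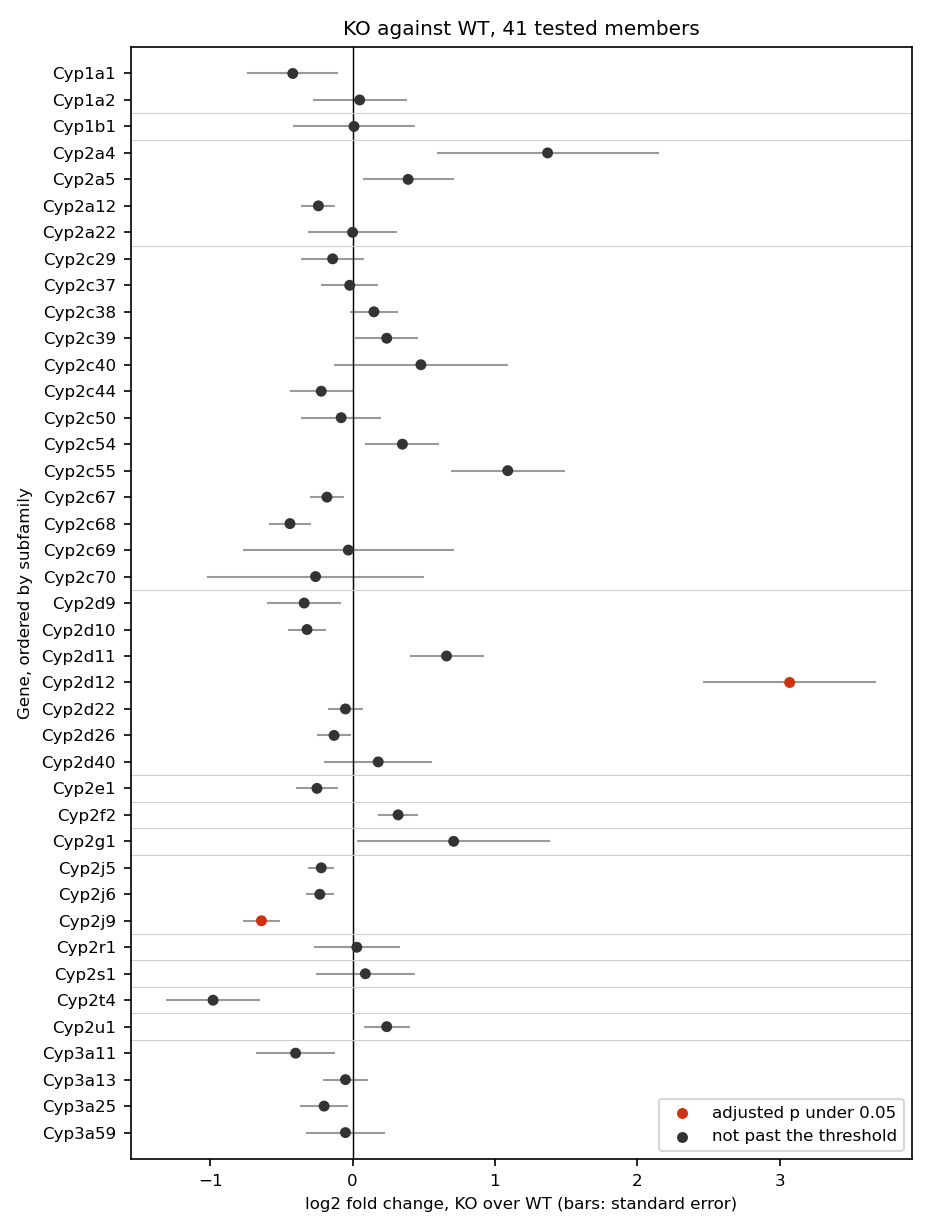
Log2 fold change of each of 41 tested members, KO over WT, with its standard error as a bar, ordered by subfamily. The 2 red points, Cyp2d12 at 3.07 and Cyp2j9 at −0.64, are past the adjusted p of 0.05.

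Members varied widely between mice of the same genotype. The median within-genotype SD of log2 CPM was 0.50 over members and 0.24 over all tested genes, and 34 of 41 members lay above the latter value. This is a description without a test, since the members share the same mice and, where copies are alike, sequence. Together the 42 members took from 1.67% (KO 584) to 2.84% (KO 591) of all counts, with 2.51% ± 0.208 in WT and 2.27% ± 0.444 in KO (SD, n = 6 each).

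**Figure D2:**
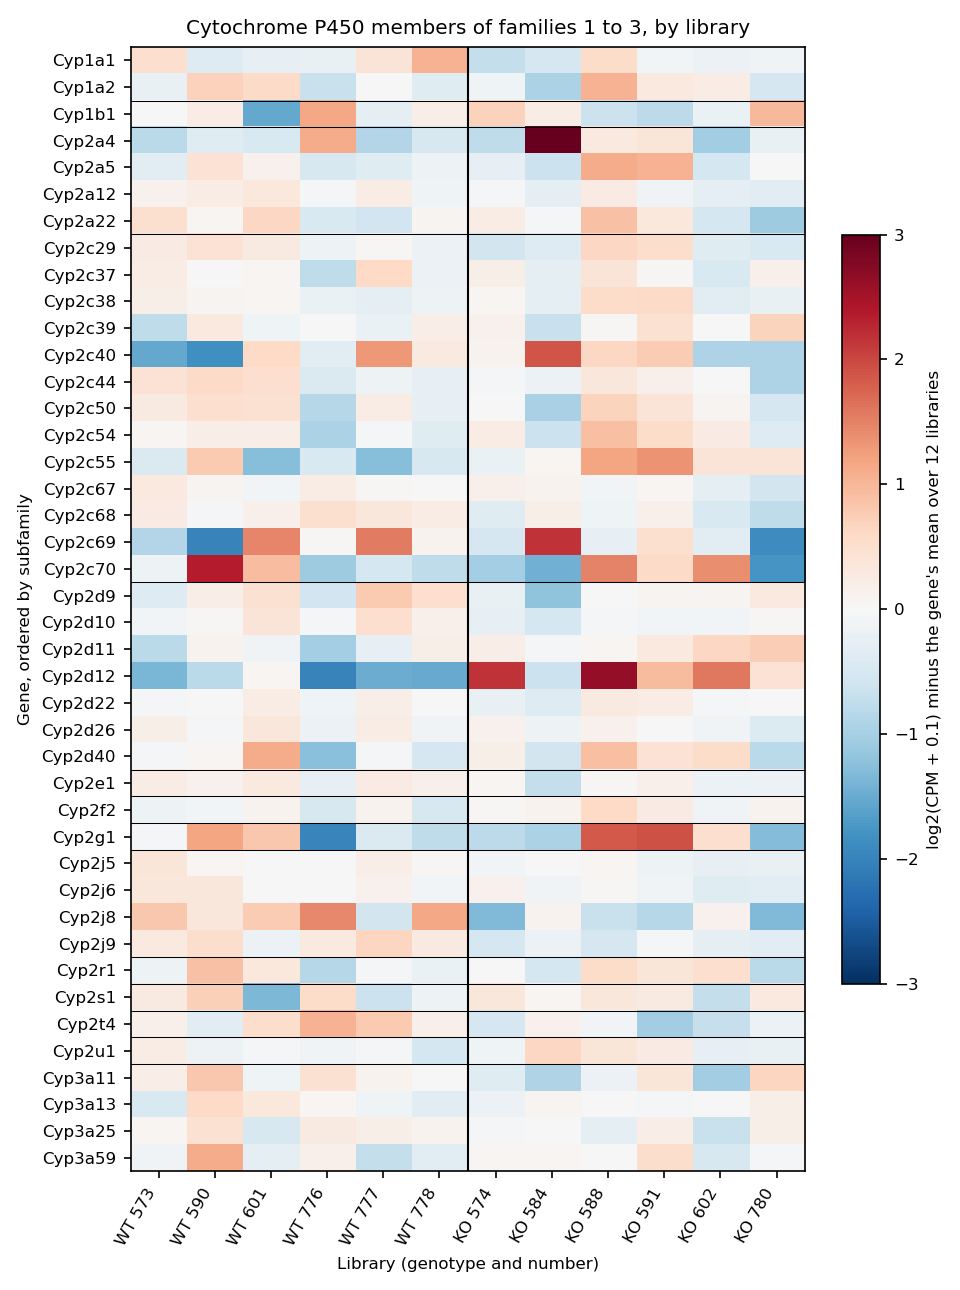
Log2(CPM + 0.1) of each of 42 members minus that gene's mean over 12 libraries, with libraries in columns and members ordered by subfamily in rows. Red is above and blue below the gene's own mean. Cyp2d12 is red in most KO columns, Cyp2a4 stands out in KO 584 at 53.3 CPM, and Cyp2c70 is red in WT 590 at 249.2 CPM.

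In order of level, Cyp2e1 stood first. Cyp2e1, which oxidises ethanol, acetone and paracetamol, had 5881 ± 743.1 CPM per kilobase of exon in WT. It was followed by Cyp2d9, a male-biased steroid hydroxylase, at 1237 ± 424.9 CPM per kilobase, then by Cyp2d26 at 707.5 ± 99.4 and Cyp3a11 at 666.7 ± 170.3. The places of some genes depend on the length used, since the deposited exonic length joins all exons of a gene. Per kilobase of a single transcript Cyp3a11 had 1448 ± 370 CPM, above Cyp2d9 at 1193 ± 409.8 but within their SDs, and Cyp2e1 still stood first. Per kilobase of exon Cyp3a25 (499.2 ± 99.5), Cyp2d10 (482.7 ± 82.8) and Cyp2a5 (439.5 ± 113) did not differ beyond their SDs. Cyp2c29, Cyp2c37 and Cyp2c50, the highest of the Cyp2c genes, lay between 166.6 and 179.9 CPM per kilobase of exon, and between 179.9 and 288.3 per kilobase of transcript. At the other end Cyp2d12, Cyp2j8, Cyp1b1, Cyp2s1, Cyp2t4, Cyp1a1 and Cyp2c55 lay at or below 0.362 CPM per kilobase in WT.

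The Cyp2j genes encode epoxygenases of arachidonic acid, and Cyp2j5 is the form best known from liver and kidney. All 3 tested Cyp2j genes had lower mean levels in KO, and 1 of them, Cyp2j9, passed the test. Cyp2j9 was measured at 19.4, 22.8, 13.8, 19.3, 24.6 and 18.9 CPM in WT 573, 590, 601, 776, 777 and 778. In KO 574, 584, 588, 591, 602 and 780 it was measured at 10.9, 14, 11.1, 15.3, 12.8 and 12.4 CPM. WT 601 lay inside the KO range, and the other 5 WT libraries lay above every KO library.

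Cyp2j9 thus fell by 0.64 on the log2 scale (SE 0.13, adjusted p = 0.015 by edgeR). The difference in mean log2 CPM was −0.52 among libraries 573 to 602 and −0.74 among 776 to 780, where KO is a single library. When only libraries 573 to 602 were fitted the call was lost (−0.54, adjusted p = 0.20 by edgeR), as it was without the 2 deepest libraries, WT 573 and KO 588 (−0.60, adjusted p = 0.070). Leaving out 1 library at a time kept it in all 12 fits. None of the 50-base windows of its transcript occurs in a transcript of another P450 gene.

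Cyp2j5 ran from 473.6 to 611.8 CPM in WT (median 491.9) and from 400.9 to 498.4 in KO (median 439.1), so the genotypes overlapped. Its log2 fold change of −0.22 (SE 0.09) had an adjusted p of 0.20 by edgeR. Cyp2j6, whose product also oxidises fatty acids, had −0.23 (SE 0.10, adjusted p = 0.22 by edgeR), with 62.3 to 83.3 CPM in WT and 51.7 to 72.5 CPM in KO. The 2 genes therefore lay at similar negative values without passing the test.

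Cyp2j8 was the least abundant member, with a mean of 5.92 counts, and was not tested. It had 14, 6, 8, 16, 2 and 13 counts in the WT libraries and 0, 4, 3, 1, 4 and 0 in the KO libraries, in the order given above for Cyp2j9. Counts of 4 in KO 584 and KO 602 exceeded the 2 counts of WT 777. Summed over the 4 members, the subfamily reached 607.8 ± 61.8 CPM in WT and 517.9 ± 43.4 in KO (SD, n = 6 each), a ratio of 0.852, with 84.9% of the WT sum from Cyp2j5.

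**Figure D3:**
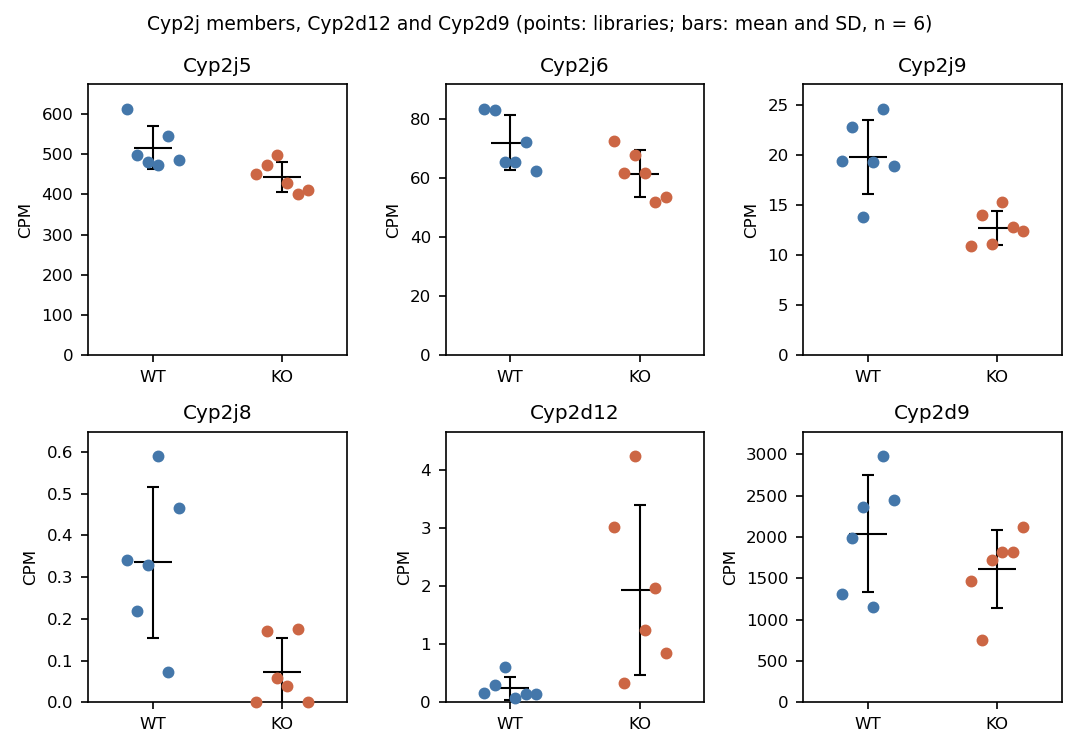
CPM of the 4 Cyp2j members, of Cyp2d12 and of Cyp2d9 in each library, with points for libraries and bars for the mean and SD of 6 libraries per genotype, on axes that start at 0. Cyp2j9 spans 13.8 to 24.6 CPM in WT and 10.9 to 15.3 in KO, while Cyp2d12 spans 0.0736 to 0.616 in WT and 0.342 to 4.23 in KO.

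The start regions of the 3 tested Cyp2j genes are shown because their levels lay on the same side of 0, and to let their sequences be set against each other. All lie on the minus strand of chromosome 4, where Cyp2j9 itself spans 96568429 to 96591578, at chr4:96664155-96664369 for Cyp2j5, chr4:96553662-96553901 for Cyp2j6 and chr4:96591579-96591735 for Cyp2j9 (RefSeq, GRCm38.p6). Capitals mark matches, on either strand, to TATAAA (the TATA box), to AGGTCA (the half-site of nuclear receptors) or to GCGTG (the core bound by AHR with ARNT).
Cyp2j5: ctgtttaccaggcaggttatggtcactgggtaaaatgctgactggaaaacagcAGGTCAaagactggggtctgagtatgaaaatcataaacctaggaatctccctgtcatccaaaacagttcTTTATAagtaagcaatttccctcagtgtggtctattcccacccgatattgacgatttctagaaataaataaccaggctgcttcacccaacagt
Cyp2j6: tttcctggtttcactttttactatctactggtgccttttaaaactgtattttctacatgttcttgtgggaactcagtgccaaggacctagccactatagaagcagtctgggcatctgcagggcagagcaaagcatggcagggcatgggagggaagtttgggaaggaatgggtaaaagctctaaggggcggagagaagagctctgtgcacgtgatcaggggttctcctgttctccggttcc
Cyp2j9: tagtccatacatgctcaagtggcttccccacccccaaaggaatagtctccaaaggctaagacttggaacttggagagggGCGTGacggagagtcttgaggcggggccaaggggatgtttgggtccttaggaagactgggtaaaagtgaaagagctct
Cyp2j5 holds TATAAA on the opposite strand (printed as TTTATA) and a receptor half-site, Cyp2j9 an AHR core and Cyp2j6 none of the 3. These are matches of sequence only, and whether they act was not tested. The windows were 38.2% to 54.2% identical in pairwise alignment.

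The Cyp2d genes include enzymes of steroid and drug oxidation related to human CYP2D6, and they held the other called member. Cyp2d12 was measured at 0.170, 0.293, 0.616, 0.0736, 0.147 and 0.143 CPM in WT 573, 590, 601, 776, 777 and 778. In KO 574, 584, 588, 591, 602 and 780 it was measured at 3.01, 0.342, 4.23, 1.24, 1.96 and 0.841 CPM. KO 584 lay below WT 601, and the other 5 KO libraries lay above every WT library. Counts were small, 2 to 15 in the WT libraries and 8 to 215 in the KO libraries.

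The log2 fold change of Cyp2d12 was 3.07 (SE 0.61, adjusted p = 0.015 by edgeR). Within library numbers the difference in mean log2 CPM was 2.13 (573 to 602) and 2.29 (776 to 780). Cyp2d12 passed the filter on low counts mainly through the KO libraries, and with no filter it still passed the test (adjusted p = 0.040 by edgeR). Leaving out 1 library at a time kept its call in all 12 fits. The call was lost among libraries 573 to 602 alone (2.69, adjusted p = 0.20 by edgeR) and without WT 573 and KO 588 (2.56, adjusted p = 0.070).

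Cyp2d12 lies at chromosome 15 from 82555108 to 82559413 on the plus strand, inside the Cyp2d cluster, and had 0.149 CPM per kilobase in WT, beside 1237 for Cyp2d9. Of the 50-base windows of its transcript, 16.3% also occur in a transcript of another P450 gene, most of them (11.1%) in Cyp2d9. Cyp2d9 ran from 1154 to 2975 CPM in WT (median 2179) and from 748.7 to 2121 in KO (median 1766). Its log2 fold change was −0.34 (SE 0.26, adjusted p = 0.49 by edgeR), so it did not share the direction of Cyp2d12. Whether reads of the abundant copies entered the Cyp2d12 count was not tested.

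Among the other Cyp2d members, Cyp2d10 had 669.9 to 1002 CPM in WT and 485.9 to 720.1 in KO, with overlap and a log2 fold change of −0.32 (SE 0.13, adjusted p = 0.18 by edgeR). Cyp2d11 had 0.368 to 0.966 CPM in WT and 0.813 to 1.47 in KO (0.66, SE 0.26, adjusted p = 0.16 by edgeR). Cyp2d22, Cyp2d26 and Cyp2d40 had log2 fold changes of −0.05, −0.13 and 0.18. The sum over 7 members was 4349 ± 956.9 CPM in WT and 3658 ± 603.2 in KO (SD, n = 6 each), a ratio of 0.841.

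Cyp2d9, Cyp2d10 and Cyp2d11 are neighbours whose start regions are close copies, although Cyp2d9 had 1237 CPM per kilobase in WT, Cyp2d10 482.7 and Cyp2d11 0.436. The 250 bases before each start are printed for this contrast between similar sequence and unlike level (RefSeq, GRCm38.p6). They lie at chr15:82452127-82452376 on the plus strand for Cyp2d9, and on the minus strand at chr15:82407195-82407444 for Cyp2d10 and chr15:82394023-82394272 for Cyp2d11. Capitals in Cyp2d10 and Cyp2d11 mark bases that differ from Cyp2d9 or are inserted in a global alignment, with ends beyond the Cyp2d9 window left in lower case.
Cyp2d9: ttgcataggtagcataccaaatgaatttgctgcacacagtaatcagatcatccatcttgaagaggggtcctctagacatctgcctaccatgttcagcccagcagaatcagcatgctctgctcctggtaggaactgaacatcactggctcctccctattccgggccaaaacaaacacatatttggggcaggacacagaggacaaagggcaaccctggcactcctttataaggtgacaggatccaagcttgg
Cyp2d10: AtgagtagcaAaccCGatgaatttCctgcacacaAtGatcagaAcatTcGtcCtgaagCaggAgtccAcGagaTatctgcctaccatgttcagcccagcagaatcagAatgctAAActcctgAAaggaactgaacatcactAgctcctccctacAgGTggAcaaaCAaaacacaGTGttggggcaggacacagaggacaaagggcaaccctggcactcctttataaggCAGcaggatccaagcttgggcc
Cyp2d11: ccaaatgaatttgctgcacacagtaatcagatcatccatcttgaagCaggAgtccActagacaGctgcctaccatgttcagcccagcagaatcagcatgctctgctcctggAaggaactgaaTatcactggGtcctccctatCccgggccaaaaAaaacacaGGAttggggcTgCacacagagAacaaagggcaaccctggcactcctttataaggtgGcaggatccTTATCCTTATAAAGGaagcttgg
Identity to Cyp2d9 over the aligned stretch was 83.8% for Cyp2d10 and 87.6% for Cyp2d11. Of the transcript windows of Cyp2d11, 36.5% occur in a transcript of another P450 gene and 63.5% in none, and windows of Cyp2d10 were shared to 39.8%. How far shared windows lowered the counts of these genes was not tested.

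The Cyp2c genes encode epoxygenases and hydroxylases of fatty acids, retinoids, steroids and drugs, and 12 of the 13 members lie in 1 cluster on chromosome 19, from 39007019 (Cyp2c55) to 40187333 (Cyp2c70) in the deposited mm10 coordinates. None passed the test, with 5 above 0 and 8 below and a median of −0.03. The smallest p was that of Cyp2c68, at 139.6 to 199.7 CPM in WT (median 167.1) and 83.3 to 161.2 in KO (median 120.3). Its log2 fold change was −0.44 (SE 0.15, adjusted p = 0.12 by edgeR), and 43.3% of its transcript windows are shared with other P450 genes.

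Cyp2c55, a form inducible through CAR and PXR, was low, at 0.328 to 1.69 CPM in WT and 0.813 to 2.56 in KO (1.09, SE 0.40, adjusted p = 0.14 by edgeR). It passed only without WT 590, the highest WT library (1.52, adjusted p = 0.029 by edgeR). Its start lies 7.06 megabases from the end of A1cf on the same chromosome. The abundant Cyp2c29, Cyp2c37 and Cyp2c50 had log2 fold changes of −0.14, −0.02 and −0.08, and the sum over the subfamily was 2356 ± 468.2 CPM in WT and 2233 ± 626.5 in KO (SD, n = 6 each).

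Copies limited what could be read from single Cyp2c genes. Over the 42 members, 17 had more than 20% of their transcript windows in common with another P450 gene and 11 had none in common. Cyp2c40, with 72.1% of its windows shared, Cyp2c69 (54.8%) and Cyp2c67 (52.8%) are uncertain for that reason.

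Cyp2c44, an epoxygenase expressed in liver and kidney, differed between the number ranges of the libraries. It had 304.5, 332.9 and 318.1 CPM in WT 573, 590 and 601 and 166.7, 200.8 and 188.0 in WT 776, 777 and 778. The KO libraries 574 to 602 had 198.9 to 284.4 CPM, and KO 780 had 117.7. KO therefore lay below WT within either range, while the genotypes overlapped over all 12 libraries (−0.22, SE 0.22, adjusted p = 0.60 by edgeR).

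With the range as a second term the genotype difference was −0.50 (adjusted p = 0.015 by edgeR). The range difference, a comparison chosen after values were seen, was −0.86 (SE 0.11, adjusted p = 0.0025). It was the only member past the threshold for range, 2.44% of members beside 4.36% of all tested genes. Of the 41 members, 29 lay lower in libraries 776 to 780, with a median of −0.17, beside 51.7% of all tested genes and a median of −0.01. What the numbers stand for is not stated in the labels, and since KO is 1 of the 4 libraries from 776 to 780 the range and the genotype are partly confounded.

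The Cyp3a genes encode the main enzymes of drug and steroid hydroxylation, and Cyp3a11 is the abundant PXR-regulated form in mouse liver. None of 4 tested members passed the test, and all 4 had log2 fold changes below 0. Cyp3a11 ran from 2556 to 4932 CPM in WT (median 3118) and from 1359 to 4365 in KO (median 2320), with overlap and −0.40 (SE 0.28, adjusted p = 0.43 by edgeR). The difference in mean log2 CPM was −0.72 among libraries 573 to 602 and 0.45 among 776 to 780, where KO 780 was the highest KO library. Whether the genotype difference itself changed between the ranges was not tested.

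Cyp3a25 had 685.6 to 1311 CPM in WT and 595.4 to 1083 in KO (−0.20, SE 0.17, adjusted p = 0.53 by edgeR). Cyp3a13 and Cyp3a59 each had −0.05. Summed over the subfamily, WT had 4802 ± 1129 CPM and KO 3834 ± 1347 (SD, n = 6 each). Female-biased Cyp3a16 and Cyp3a44 had 7 and 11 counts over all libraries together, and Cyp3a41a and Cyp3a41b had 0, although near-identical copies could also leave reads uncounted.

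**Figure D4:**
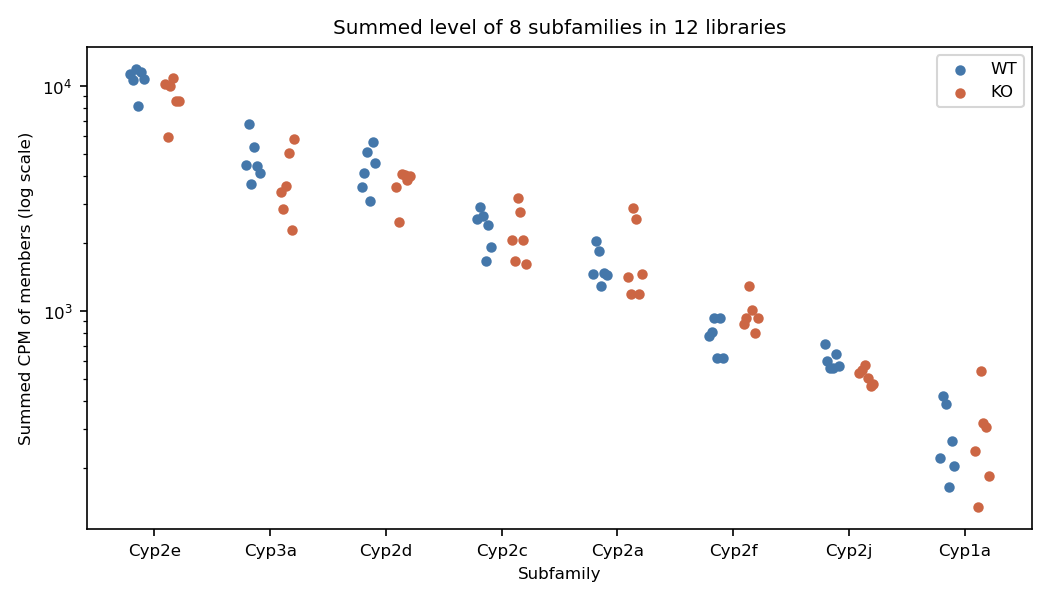
CPM summed over members of each of 8 subfamilies, on a log scale, with 1 point per library (WT blue, KO orange). Genotypes overlap in all 8. The Cyp2j sums, 558.7 to 714.9 in WT and 465.6 to 577.4 in KO, and the Cyp3a sums, 3659 to 6809 in WT and 2286 to 5830 in KO, lie partly lower in KO.

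Cyp2e1, the member of highest level per length, ran from 8141 to 11928 CPM in WT (median 11071) and from 5961 to 10851 in KO (median 9328), and did not pass (−0.25, SE 0.15, adjusted p = 0.38 by edgeR). Cyp2f2, a naphthalene-oxidising enzyme of hepatocytes around the portal vein, ran from 619.5 to 930.0 CPM in WT and from 800.5 to 1296 in KO. Its log2 fold change of 0.32 (SE 0.14) had an adjusted p of 0.22 by edgeR. Of 8 members known as pericentral, 3 lay above 0 and 5 below with a median of −0.05, and none passed.

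The Cyp2a genes oxidise coumarin, nicotine and steroids, with Cyp2a5 the inducible form and Cyp2a4 a testosterone 15α-hydroxylase that is higher in female liver. None of 4 members passed the test. The smallest p was that of Cyp2a12, a steroid hydroxylase, at 557.9 to 757.7 CPM in WT and 485.0 to 722.9 in KO (−0.24, SE 0.12, adjusted p = 0.26 by edgeR). Cyp2a4 ran from 2.93 to 11.9 CPM in WT (median 3.92) and from 2.62 to 53.3 in KO (median 5.67). Its log2 fold change of 1.37 (SE 0.78, adjusted p = 0.34 by edgeR) rested on KO 584 and was −0.03 without it. Cyp2a5 ran from 692.3 to 1309 CPM in WT and from 622.5 to 2105 in KO (0.39, SE 0.32, adjusted p = 0.51 by edgeR), with its highest values in KO 588 and KO 591.

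The start regions of this pair are printed because they are nearly the same, while Cyp2a5 had 439.5 CPM per kilobase in WT and Cyp2a4 2.87. They lie on the plus strand at chr7:26835089-26835304 and chr7:26306942-26307168 (RefSeq, GRCm38.p6). Capitals in Cyp2a4 mark bases that differ from Cyp2a5 where the windows align, and the ends of the Cyp2a4 window beyond the Cyp2a5 window are left in lower case.
Cyp2a5: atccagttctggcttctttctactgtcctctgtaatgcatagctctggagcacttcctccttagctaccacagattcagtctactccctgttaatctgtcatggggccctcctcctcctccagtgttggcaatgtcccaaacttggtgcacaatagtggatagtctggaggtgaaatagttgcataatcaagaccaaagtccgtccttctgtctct
Cyp2a4: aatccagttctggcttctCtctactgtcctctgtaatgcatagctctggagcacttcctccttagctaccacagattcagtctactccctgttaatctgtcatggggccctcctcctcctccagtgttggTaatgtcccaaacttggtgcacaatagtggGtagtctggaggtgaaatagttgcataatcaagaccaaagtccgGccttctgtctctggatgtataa
Identity was 98.1% over the aligned stretch, with 4 bases in capitals. The 11 further bases of Cyp2a4 lie beyond the Cyp2a5 window, whose printed part ends at a differently annotated start. Of the transcript windows of Cyp2a4, 38.0% occur in a transcript of another P450 gene and 62.0% in none. How far shared windows lowered the counts of the pair was not tested. KO 584 was high for Cyp2a4 while being the lowest of all 12 libraries for Cyp2a5.

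The Cyp1 genes are the classical AHR targets that oxidise aromatic hydrocarbons and arylamines. Cyp1a2, the form made constitutively in liver, ran from 164.7 to 420.1 CPM in WT (median 242.6) and from 134.1 to 539.7 in KO (median 271.8), with a log2 fold change of 0.05 (SE 0.33). Cyp1a1 and Cyp1b1, at about 1 CPM, had −0.42 and 0.01. None of these passed the test, nor did the 3 tested AHR targets outside the P450s, among them Ugdh, UDP-glucose dehydrogenase (−0.41, adjusted p = 0.074 by edgeR), and the quinone reductase Nqo1 (−0.43, adjusted p = 0.27).

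Of the remaining single-gene subfamilies, Cyp2r1, a vitamin D 25-hydroxylase, had 8.89 ± 3.75 CPM in WT and 9.03 ± 3.25 in KO (SD, n = 6 each). Cyp2u1, a male-biased fatty acid hydroxylase, had 19.8 ± 3.24 and 23.3 ± 6.00 CPM. Cyp2g1 had 1.75 ± 1.30 and 2.79 ± 2.63 CPM, and Cyp2s1 had 0.595 ± 0.321 and 0.635 ± 0.170 CPM. Cyp2t4, the next above Cyp2j8 with a mean of 11 counts, had 0.507 ± 0.202 and 0.250 ± 0.0994 CPM (−0.98, SE 0.33, adjusted p = 0.11 by edgeR). Just outside the minimum were Cyp3a57 with a mean of 3.67 counts and Cyp2d34 with 2.08.

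Among members grouped by known regulation, none of the 4 tested of 8 female-biased genes passed, with 3 above 0. None passed of 2 male-biased genes, of 3 AHR targets or of 5 targets of CAR or PXR (2 above 0, 3 below). These groups overlap, and their members share libraries and in part sequence.

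A single library, KO 584, stood apart in some of the sex-biased members, a description chosen after values were seen. It held the highest level of all 12 libraries for the female-biased Cyp2a4 (53.3 CPM), Cyp2c40 (8.56 CPM) and Cyp2c69 (4.32 CPM), and the lowest for the male-biased Cyp2d9 (748.7 CPM). In the other 11 libraries Cyp2c40 ran from 0.550 to 5.68 CPM and Cyp2c69 from 0.147 to 2.82 CPM. Cux2, a transcription factor known from female liver, was also highest there, at 22.3 CPM, beside 0.316 to 9.54 CPM in the other 11. The fourth female-biased member, Cyp2c39, did not share this pattern and was at 2.95 CPM in KO 584, within its WT range of 2.74 to 5.79. The other male-biased member, Cyp2u1, went the opposite way from Cyp2d9, with its highest level of all 12 libraries in KO 584 (32.5 CPM, beside at most 27.2). Low values in KO 584 were not confined to Cyp2d9. Members not listed as sex-biased were also lowest there, namely Cyp1a2 (134.1 CPM), Cyp2a5 (622.5), Cyp2c50 (245.9), Cyp2d10 (485.9), Cyp2d22 (220.1) and Cyp2e1 (5961). How often KO 584 held the extreme value over all tested genes was not counted. Without KO 584 the log2 fold changes of Cyp2a4, Cyp2c40 and Cyp2c69 were −0.03, −0.01 and −0.89, beside 1.37, 0.48 and −0.03 with it, and that of Cyp2d9 was −0.19 in place of −0.34.

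Some members were high in KO 588 and KO 591, again a description chosen after values were seen. The share of all tested genes that were highest in these libraries was not counted. KO 588 is the library of highest total count, and both are among the libraries with the most Saa1 described below. Cyp2a5 had 2105 and 1987 CPM there, beside at most 1309 in any other library, and Cyp2g1, a gene near it that is best known from the olfactory mucosa, had 5.94 and 6.25 CPM, beside at most 3.74. Cyp2c29 and Cyp2c38 were likewise highest in these libraries, at 723.6 and 680.0 CPM and at 88.3 and 89.4 CPM. The other 4 KO libraries held 318.4 to 364.4 CPM of Cyp2c29, less than any WT library (412.5 to 631.8), so KO values lay on both sides of WT.

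Levels of acute phase genes varied from mouse to mouse in both genotypes, and 4 members were highest in the libraries with the most Saa1. Saa1, an acute phase protein gene, was measured at 8337 CPM in WT 590, 6920 in WT 601, 3653 in KO 588, 1840 in KO 591 and 17489 in KO 602. The other 7 libraries held 20.8 to 83.8 CPM. Cyp2c70, a mouse enzyme of muricholic acid synthesis, was highest in the 5 libraries named, at 249.2, 92.8, 137.7, 73.3 and 127.6 CPM, beside 14.3 to 44.2 in the other 7. Cyp1a2 (305.9 to 539.7 CPM, beside at most 263.4), Cyp2g1 (2.31 to 6.25, beside at most 1.51) and Cyp2r1 (10.4 to 15.5, beside at most 8.31) were likewise highest in these 5 libraries. In all, 4 of 41 members had their 5 highest values there and none their 5 lowest, 9.76% of members, beside 440 and 386 of all tested genes (6.03%). With so few members, this share is not set apart from that of all tested genes. Cyp2a5 and Cyp3a11 did not split in this way, and Cyp3a11 was 4932 CPM in WT 590 and 1359 in KO 602. All 5 libraries lie in the number range from 573 to 602, so Saa1 level and number range are partly confounded. With the range as a second term, the range difference was −2.25 for Cyp2c70, −1.97 for Cyp2g1, −0.85 for Cyp2r1 and −0.72 for Cyp1a2. None of these range differences passed the threshold. The 5 libraries were picked by their Saa1 level, so the split is a description without a test.

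No library was left out for these differences, and their part in the members' values was not tested. In these bulk samples fewer cells of a type and less RNA per cell cannot be told apart. Of 15 acute phase genes, 14 lay above 0 and none passed the test of KO against WT.

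**Figure D5:**
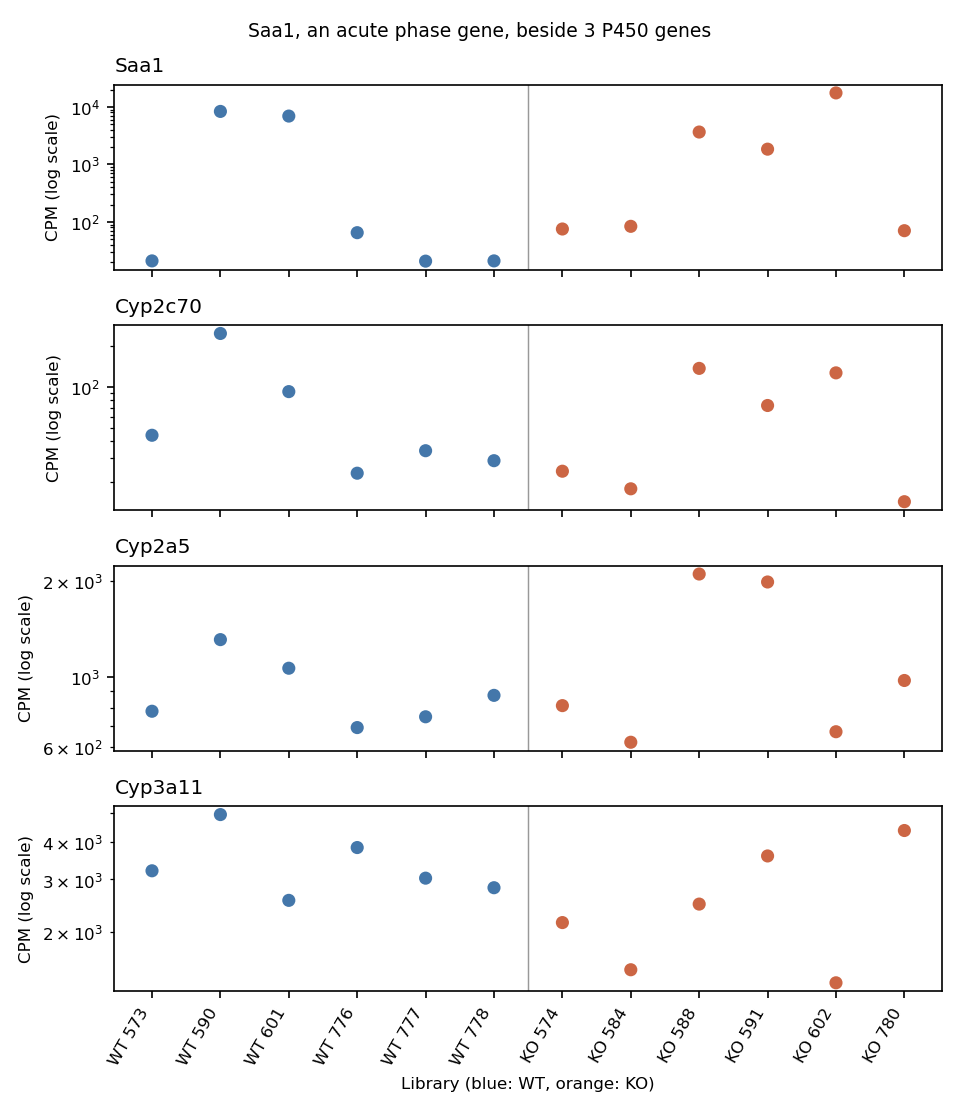
CPM of Saa1, Cyp2c70, Cyp2a5 and Cyp3a11 in 12 libraries, each panel on its own log scale, with WT in blue and KO in orange. The 5 libraries with Saa1 at 1840 CPM or more are also the 5 with the highest Cyp2c70, between 73.3 and 249.2 CPM, and the other 2 genes follow no such order.

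Markers of Kupffer, stellate and sinusoidal endothelial cells had higher mean levels in KO, whereas most cholangiocyte markers did not. All 7 Kupffer cell markers lay above 0 (median 0.70, none passed), with sums of 89.4 to 152.6 CPM in WT and 94.8 to 332.8 in KO. All 8 stellate and fibroblast markers lay above 0, Lrat (0.68, adjusted p = 0.026 by edgeR) and Pdgfrb (0.43, adjusted p = 0.024) rose, and their sums were 136.8 to 252.3 CPM in WT and 224.7 to 313.3 in KO. All 6 markers of sinusoidal endothelium lay above 0 and Stab2 rose (0.48, adjusted p = 0.045 by edgeR). Of 5 cholangiocyte markers, 1 lay above 0 and 4 below (median −0.14), and none passed. Of 3 red cell markers, 1 lay above 0 and 2 below. All 3 neutrophil markers and both tested markers of T and B cells lay above 0, and none passed. Of 7 hepatocyte markers, 6 lay below 0 with a median of −0.09. Their part in the members' small differences was not tested.

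The P450s depend on electron donors, haem and transcription factors, and 3 of the 48 tested genes of these lists passed the test, 6.25% beside 3.82% of all tested genes. With so few calls this share is not set apart from the background. None of 7 electron donors and membrane partners did, 6 of them with log2 fold changes below 0 and a median of −0.17. Por, the P450 reductase, had 694.1 ± 107.6 CPM in WT and 617.3 ± 141.3 in KO (SD, n = 6 each). Pgrmc1, a haem-binding partner of P450s, had −0.36 (SE 0.11, adjusted p = 0.079 by edgeR) and Ephx1, microsomal epoxide hydrolase, −0.34 (adjusted p = 0.19).

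Among 12 genes of haem synthesis and breakdown, Blvrb, a flavin and biliverdin reductase, fell by 0.54 (SE 0.12, adjusted p = 0.031 by edgeR). Its levels were 110.6 ± 21.1 CPM in WT and 76.2 ± 9.10 in KO (SD, n = 6 each). Alas1, the rate-limiting enzyme of haem synthesis, had 0.10 (SE 0.19, adjusted p = 0.81). Of 26 tested receptors and transcription factors, Foxa1, a pioneer factor of liver genes, rose by 0.65 (SE 0.17, adjusted p = 0.047 by edgeR). Rxra, the shared partner of CAR, PXR and FXR, fell by 0.31 (SE 0.08, adjusted p = 0.046), with 482.4 to 589.9 CPM in WT and 412.3 to 447.8 in KO, without overlap. Those 3 calls lie close to the threshold and were lost in most fits with 1 library left out (Blvrb in 7, Rxra in 11 and Foxa1 in 9 of 12). The receptors Ahr, Nr1i2 (PXR) and Nr1i3 (CAR) had −0.26, −0.16 and −0.10 and did not pass.

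Among the other P450 genes, 1 of 24 tested in families 4 and above was called, Cyp39a1, an oxysterol hydroxylase, and 1 of 2 tested Cyp2b genes, Cyp2b9. With 3.82% of all tested genes called, the count in families 4 and above also lies near the background. The log2 fold changes of Cyp39a1 and Cyp2b9 were −2.53 (SE 0.44) and 6.12 (SE 0.73), and both genes separated the genotypes without overlap.

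Promoter windows of 250 bases before to 50 after the start were found for 36 of 42 members and set against 27025 RefSeq windows of the same length (GRCm38.p6). A TATAAA on either strand occurred in 58.3% of member windows and in 14.2% of all. An AGGTCA occurred in 33.3% against 16%, a GTTAAT, the half-site of HNF1, in 16.7% against 7.2%, and a CAAAGTCCA, a sequence of HNF4A type, in 16.7% against 0.477%. The AHR core GCGTG occurred in 13.9% against 32.5%, and TTGCGCAA, of C/EBP type, in no member window and in 0.185% of all. Copies share sequence, so these windows are not independent. The 6 CAAAGTCCA members were Cyp2c40, Cyp2c67, Cyp2c68, Cyp2c69, Cyp2c70 and Cyp3a11, and none of them passed the test.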

How the data were processed

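Liver RNA of 6 WT and 6 A1cf -/- mice was sequenced from TruSeq libraries of total RNA, per the labels' protocols. The deposited table held raw fragment counts for gene names. The authors counted with featureCounts 1.5.0-p2 over exons of GENCODE M8 with no strand option, per the file headers. It also held an exonic length, another value per gene, that the authors deposited beside them. STAR, DESeq2 and mm10 are named, without versions, in the submitters' processing notes. Counts of reads over several genes, or at several places, are not added by that tool's default, which lowers near-identical copies.

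The test was edgeR 4.0.16 in R 4.3.3 (filterByExpr with a minimum count of 10, TMM scaling, robust glmQLFit and glmQLFTest), and genotype was its single term. Benjamini-Hochberg adjustment ran over all tested genes. The threshold was 0.05, and the words rose and fell are kept for genes past it. A standard error is the log2 fold change over the root of F. TMM-scaled CPM are shown, with a prior count of 2 in log2 CPM. Floors of 3 counts cover counting error only. The groups share no library number. The fit was first tested on simulated data of known fold changes. It recovered 48% of 1.5-fold, 76% of 2-fold, 92% of 4-fold and 98% of 8-fold changes, with 50 genes planted at each. A gene that did not pass can therefore still differ. DESeq2 1.42.0 and limma 3.58.1 were used as alternatives, beside other scalings, filters, number ranges and depths and each library left out.

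Members and lists were chosen with earlier results of these data known. Named members were those past the threshold, the smallest p in each subfamily, the most abundant of each and those next to the count minimum. Members outside that rule were named after their values were seen. Named partner genes were those past the threshold or, where none passed, up to 2 of smallest p, with Por, Alas1, Ahr, Nr1i2 and Nr1i3 added after their values were seen. Transcript windows of 50 bases were compared among P450 transcripts of a later GENCODE release of the same build.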

Additional observations from a re-analysis of the deposited data

Results flagged for a closer look

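Over 84 groups of 6 libraries, 5 held a library whose value lay far from the others of its genotype, where chance gives about 1 in 20 groups. Cyp2a4 was at 11.9 CPM in WT 776, beside 2.93 to 4.21 in the other WT libraries, and at 53.3 CPM in KO 584, beside 2.62 to 7.02. Cyp2d9 was at 748.7 CPM in KO 584, beside 1466 to 2121. Cyp2e1 was at 8141 CPM in WT 776, beside 10689 to 11928. Cyp2s1 was at 0.306 CPM in KO 602, beside 0.599 to 0.748. KO 584 is the library of lowest total count and of the lowest share of counts in members (1.67%).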

How the results depend on the processing

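Of the 41 tested members, Cyp2d12 and Cyp2j9 together kept their call in 38 of 42 values and lost it in 4, with 1 value per gene and other fit. Among libraries 573 to 602 alone they had 2.69 and −0.54, and without the 2 deepest libraries 2.56 and −0.60. With 1 library left out they ran from 2.65 to 3.55 and from −0.72 to −0.56. The other members kept direction and side of the threshold in 738 of 813 values, passed in 2 (Cyp2c44 with the number range as a covariate, −0.50, and Cyp2c55 without WT 590) and changed sign in 73.

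Members past the threshold numbered 2, or 0 in libraries 573 to 602 and 0 without the 2 deepest libraries, and 2 to 3 with 1 library left out. Over all tested genes the count of 523 became 1175 with DESeq2, 57 in libraries 573 to 602, 206 without the 2 deepest libraries, and 266 to 638 with 1 library left out. The 3 partner genes became 1 with library totals only, 1 with no low-count filter, 6 with DESeq2, 0 in libraries 573 to 602 and 0 to 4 with 1 library left out.

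Values that changed sign were all uncalled. With limma-voom these were Cyp1a2 (−0.05), Cyp2a22 (−0.02), Cyp2c37 (0.00) and Cyp3a59 (0.05), with library totals only Cyp2c37 (0.04), Cyp2c69 (0.05), Cyp3a13 (0.01) and Cyp3a59 (0.01), and with RLE factors or DESeq2 Cyp2a22 (−0.00 and −0.01). With no low-count filter they were Cyp1b1 (−0.00) and Cyp2a22 (−0.01). With the number range as a covariate they were Cyp1a2 (−0.17), Cyp2a22 (−0.31), Cyp2d40 (−0.15) and Cyp2r1 (−0.25). In libraries 573 to 602 they were Cyp1a2 (−0.15), Cyp2a22 (−0.15), Cyp2c69 (0.54), Cyp2d40 (−0.09) and Cyp2r1 (−0.16). Without the 2 deepest libraries they were Cyp1a2 (−0.29), Cyp2a22 (−0.14), Cyp2d40 (−0.02) and Cyp2r1 (−0.13). The cause was not tested. With 1 library left out the members that changed sign ran as follows: Cyp1a2 −0.23 to 0.21, Cyp1b1 −0.24 to 0.34, Cyp2a4 −0.03 to 1.83, Cyp2a22 −0.23 to 0.15, Cyp2c37 −0.14 to 0.12, Cyp2c40 −0.01 to 0.92, Cyp2c50 −0.25 to 0.05, Cyp2c69 −0.89 to 0.36, Cyp2c70 −0.61 to 0.56, Cyp2d22 −0.12 to 0.01, Cyp2d40 −0.00 to 0.52, Cyp2r1 −0.10 to 0.26, Cyp2s1 −0.09 to 0.29, Cyp3a13 −0.13 to 0.08 and Cyp3a59 −0.17 to 0.28.

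With 1 library left out the log2 ratio of summed levels ran from −0.23 to 0.21 in Cyp1a, −0.02 to 0.25 in Cyp2a, −0.21 to −0.00 in Cyp2c, −0.33 to −0.16 in Cyp2d, −0.26 to −0.18 in Cyp2j and −0.48 to −0.20 in Cyp3a, and A1cf ran from −2.31 to −2.20. No other setting moved a summed level beyond 1 SD between libraries. Per kilobase of transcript in place of exonic length, an alternative chosen after seeing the data, the WT level became 1448 for Cyp3a11, 288.3 for Cyp2c50 and 286.1 for Cyp2c29, and 7 other members stayed within 1 SD. No paired analysis was possible because the genotypes share no library number. At these depths members under about 1 CPM, such as Cyp2d12, Cyp2j8 and Cyp2t4, rest on few counts.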

Other observations

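Gene names marked as pseudogenes fell outside the member names but some of them were abundant. Cyp2d37-ps had 99.3 ± 24 CPM in WT and 101.7 ± 16.5 in KO (SD, n = 6 each), a log2 fold change of 0.03 (SE 0.16, adjusted p = 0.93 by edgeR). Cyp2d41-ps had 4.89 ± 2.52 CPM in WT and 8.27 ± 6.35 in KO (0.76, SE 0.43, adjusted p = 0.34 by edgeR), with 21.1 CPM in KO 602.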
